A study of Mus musculus with 9 samples.

Results

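DNA replication machinery was examined as a fixed list of 50 genes of the count table, which holds 55450 genes. The list covered origin licensing, the MCM2-7 helicase, origin firing, primase and polymerases, the clamp and Okazaki fragment enzymes, nucleotide supply, and the cyclin E and E2F genes of the G1/S transition. The genes were found by symbol in GENCODE M21, and all 50 were among the 19357 genes that passed a filter on low counts. EYFP+ mammary cells of adult nulliparous mice were sorted and profiled by RNA sequencing, with 3 libraries in each of 3 groups. All groups carried the lsl-EYFP reporter and K8CreERT2, a tamoxifen-inducible Cre driven by the Krt8 promoter, so that recombination starts in keratin 8-positive luminal cells. All mice received 5 daily doses of 2 mg tamoxifen, and glands were taken 7 days after the last dose. Control mice carried no floxed allele, LATS1/2-KO mice carried LATS1/2f/f, and LATS1/2-Sox9-KO mice carried LATS1/2f/f and Sox9f/f. Total counts per library were 44167762 to 47003587 in control, 50508666 to 61745346 in LATS1/2-KO and 55503365 to 61967651 in LATS1/2-Sox9-KO. Normalized counts below are counts divided by each library's TMM-adjusted size and put back on the average size of the 9 libraries.

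A replication origin is licensed in G1, when the origin recognition complex, Cdc6 and Cdt1 load the MCM2-7 ring onto DNA. At S phase entry, Dbf4-dependent Cdc7 kinase and cyclin E with its kinase convert the ring into an active helicase with Cdc45 and GINS, and primase and the polymerases α, δ and ε then copy both strands. Many of these genes are known targets of E2F factors, so their transcripts are abundant in cycling cells and scarce in resting epithelium. LATS1 and LATS2 are the kinases of the Hippo pathway that restrain the coactivators YAP and TAZ.

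The targeted genes were read first. Lats1 had normalized counts of 5672, 5929 and 5940 in control, 2090, 1923 and 2336 in LATS1/2-KO, and 2058, 1844 and 1709 in LATS1/2-Sox9-KO. It fell by 1.47 on the log2 scale in LATS1/2-KO (standard error 0.11, adjusted p = 7.07e-06, edgeR quasi-likelihood test). Lats2, in contrast, had 1039, 865 and 1220 normalized counts in control, 1256, 1434 and 1723 in LATS1/2-KO, and 1957, 1580 and 1240 in LATS1/2-Sox9-KO, so that total Lats2 counts went against the label. Sox9 had 23313, 19948 and 21534 normalized counts in control, 7205, 9506 and 12433 in LATS1/2-KO and 8812, 6756 and 6460 in LATS1/2-Sox9-KO. Between the latter groups its ranges overlapped, and its log2 difference was -0.40 (standard error 0.19, adjusted p = 0.25, edgeR). Deleted exons cannot be seen in counts per gene, and the groups are therefore named below by their labels, LATS1/2-KO-labelled and LATS1/2-Sox9-KO-labelled.

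Nearly the whole replication list was higher in the LATS1/2-KO-labelled libraries than in control. Of the 50 genes, 46 rose and 1 fell at an adjusted p of at most 0.05 (edgeR quasi-likelihood test, Benjamini-Hochberg adjustment over 19357 genes), where 28.7% of all tested genes were higher and 27.1% lower. A rise of over 2-fold was found for 39 of the 50, against 17.1% of all tested genes. All 3 LATS1/2-KO-labelled libraries lay above all 3 control libraries for 46 genes, against 31.3% of all tested genes, and below them for 1, against 30.3%. The median log2 fold change of the 50 genes was 1.67, and that of all tested genes was 0.04. The largest rise was that of Rrm2, the regulated subunit of ribonucleotide reductase, at 15.4-fold, and the gene that fell was Pold3, an accessory subunit of DNA polymerase δ, at 0.777-fold. Cdt1, Pold1 and Rfc2 passed the test in neither direction. In bulk RNA, more cells that express a gene and more RNA of that gene per cell cannot be told apart.

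The LATS1/2-Sox9-KO-labelled libraries, set against the same control libraries, gave 45 genes higher and 1 lower, where 29.3% of all tested genes were higher and 28.7% lower. Of these, 39 rose by over 2-fold, against 17.8% of all tested genes, and a fall of that size, seen in 19.6% of all tested genes, was seen in none of the 50. All 3 LATS1/2-Sox9-KO-labelled libraries lay above all control libraries for 46 members and below them for 1, against 34.9% and 33.8% of all tested genes. The median log2 fold change was 1.65, beside 0.01 for all tested genes. Because both comparisons use the same 3 control libraries, their likeness is not independent.

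**Figure D1:**
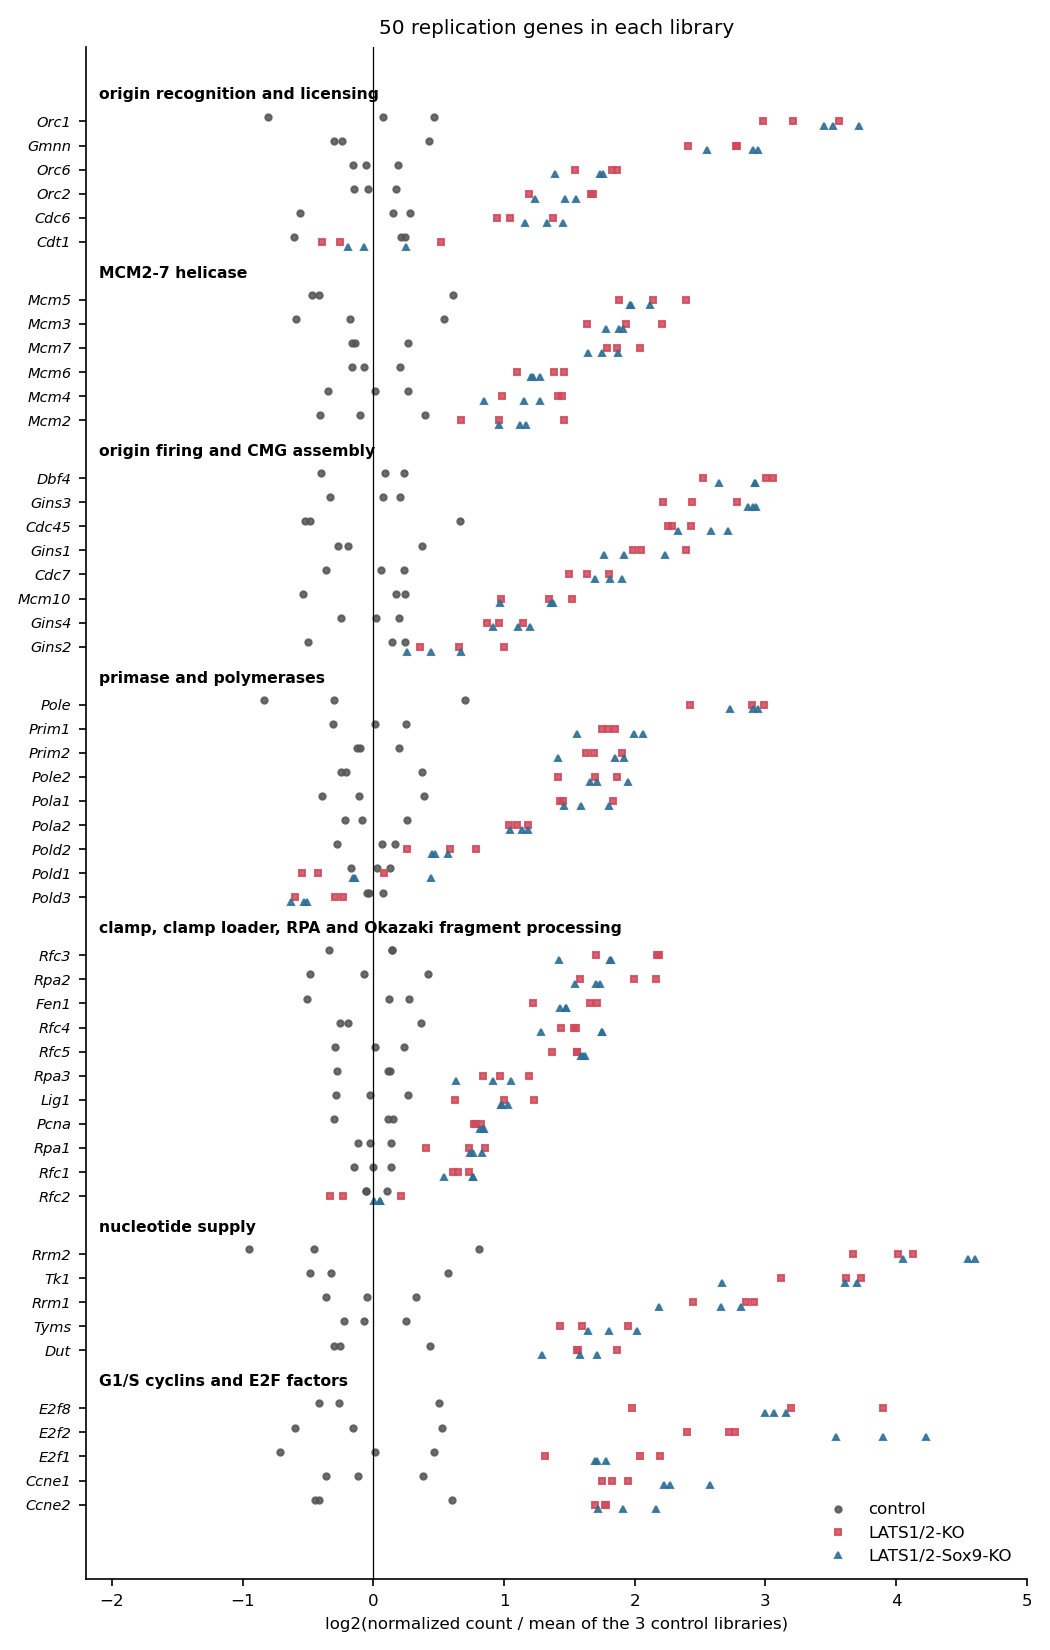
Each of the 50 replication genes, grouped by role, in each of 9 libraries, as log2 of the normalized count over the mean of the 3 control libraries (0 marks that mean). For 46 genes all 3 LATS1/2-KO-labelled libraries (squares) lie to the right of all 3 control libraries (circles), while Cdt1, Pold1 and Rfc2 overlap with control and Pold3 lies to the left.

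The plot of the 50 genes by library shows the libraries of a group moving together. Summed over the list, normalized counts were 46790, 55803 and 42593 in control, 109540, 129494 and 136995 in the LATS1/2-KO-labelled libraries, and 114838, 127535 and 132483 in those labelled LATS1/2-Sox9-KO. The highest control sum was thus below the lowest sum of either other group. Control replicate 2 was the highest control library for 41 of the 50 genes and control replicate 3 the lowest for 33. Replicate 1 was the lowest library for 37 genes among those labelled LATS1/2-KO and for 30 among those labelled LATS1/2-Sox9-KO.

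Promoters from RefSeq (GRCm38.p6, 250 bases before to 50 after the annotated start) were matched to 41 of the 50 genes, in 49 windows. An E2F-like heptamer (TTCCCGC, or TTGGCGC, or TTCGCGC, or TTGCCGC, on either strand, overlapping matches counted separately) was present in 57.1% of these windows, against 15.2% of the windows of all tested genes and 9.57% of all windows. CCAAT on either strand was present in 55.1%, 37.2% and 37.4% of these sets, and TTTGAAA, the core of the CHR element of cell cycle promoters, in 8.16%, 4.40% and 6.50%. Windows are shown for the genes with the highest and the lowest fold changes that matched, with the heptamer in capitals. The Rrm2 window is at chr12:24708004-24708303 on the + strand, that of Tk1 at chr11:117825965-117826264 on the - strand, and that of Orc1 at chr4:108579204-108579503 on the + strand. Those of Pold3 and Pold1 are at chr7:100121453-100121752 and chr7:44548766-44549065, both on the - strand.
Rrm2: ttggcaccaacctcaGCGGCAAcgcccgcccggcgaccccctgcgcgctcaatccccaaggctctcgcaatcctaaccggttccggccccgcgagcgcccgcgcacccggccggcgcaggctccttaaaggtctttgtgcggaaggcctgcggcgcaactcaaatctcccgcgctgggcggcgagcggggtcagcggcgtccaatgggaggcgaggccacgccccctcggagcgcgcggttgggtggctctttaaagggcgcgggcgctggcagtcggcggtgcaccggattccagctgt
Tk1: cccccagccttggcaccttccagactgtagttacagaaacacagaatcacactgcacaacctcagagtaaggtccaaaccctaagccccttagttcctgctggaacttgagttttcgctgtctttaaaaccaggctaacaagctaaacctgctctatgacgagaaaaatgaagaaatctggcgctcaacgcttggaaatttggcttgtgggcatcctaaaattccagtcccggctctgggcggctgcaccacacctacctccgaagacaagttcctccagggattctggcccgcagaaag
Orc1: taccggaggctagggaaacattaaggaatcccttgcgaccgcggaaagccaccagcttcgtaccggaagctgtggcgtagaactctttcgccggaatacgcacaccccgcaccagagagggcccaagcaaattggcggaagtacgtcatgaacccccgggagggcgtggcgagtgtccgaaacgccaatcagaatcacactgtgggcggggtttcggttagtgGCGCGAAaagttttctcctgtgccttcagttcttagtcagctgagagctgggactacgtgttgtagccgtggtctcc
Pold3: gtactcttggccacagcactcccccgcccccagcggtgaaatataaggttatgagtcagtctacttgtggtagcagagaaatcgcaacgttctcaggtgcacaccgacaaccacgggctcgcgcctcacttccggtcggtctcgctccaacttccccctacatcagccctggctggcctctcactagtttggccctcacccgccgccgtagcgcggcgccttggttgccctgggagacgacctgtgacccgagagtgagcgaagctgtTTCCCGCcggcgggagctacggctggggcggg
Pold1: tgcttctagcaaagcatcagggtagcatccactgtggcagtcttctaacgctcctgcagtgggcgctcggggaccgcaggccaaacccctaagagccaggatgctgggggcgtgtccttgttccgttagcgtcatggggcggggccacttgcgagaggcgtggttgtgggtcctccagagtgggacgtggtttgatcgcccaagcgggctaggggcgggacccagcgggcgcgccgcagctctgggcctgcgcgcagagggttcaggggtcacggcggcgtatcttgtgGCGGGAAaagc
The heptamer was found in the windows of Rrm2 and Orc1, which rose by over 9-fold, and also in those of Pold3 and Pold1, which did not rise, while the window of Tk1, which rose by 11.4-fold, held none. A match is a description of letters in the window and not a binding site. Gins1, Gins2, Gins4, Ccne2, Gmnn, Mcm4, Pole, Prim2 and Rfc2 were not matched.

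Origin recognition and licensing was divided between genes that rose and Cdt1, and 5 of its 6 genes rose by over 2-fold in the LATS1/2-KO-labelled libraries. Orc1 (chromosome 4, 108579423 to 108614833), the ATPase subunit of the origin recognition complex that cycles with the cell cycle, had normalized counts of 32.5, 78.3 and 59.7 in control. It had 448, 672 and 526 in the LATS1/2-KO-labelled libraries, and 652, 622 and 747 in those labelled LATS1/2-Sox9-KO. Every library of either deletion label was more than 5 times the highest control library. Orc1 rose by 3.27 on the log2 scale (standard error 0.31, adjusted p = 2.07e-05, edgeR) for LATS1/2-KO and by 3.56 (standard error 0.31, adjusted p = 9.84e-06, edgeR) for LATS1/2-Sox9-KO. Geminin (Gmnn), the protein that binds Cdt1 and blocks relicensing, averaged 244 ± 73.3 normalized counts (SD of 3 libraries) in control and rose to 1552 ± 219 (SD of 3 libraries) in the LATS1/2-KO-labelled libraries. Its partner Cdt1 (chromosome 8, 122568015 to 122573554), the loader of MCM2-7, did not follow. Cdt1 had 1047, 1070 and 592 normalized counts in control, 689, 759 and 1295 in the LATS1/2-KO-labelled libraries and 1074, 859 and 792 in those labelled LATS1/2-Sox9-KO. The 3 groups overlapped, with the lowest library in control and the highest among those labelled LATS1/2-KO. The log2 fold change of Cdt1 was 0.02 (95% interval -0.63 to 0.66, adjusted p = 0.966, edgeR), and it passed the test in none of 17 alternatives (log2 fold changes from -0.31 to 0.55). Orc2, Orc6 and Cdc6, a large subunit, the smallest subunit and the ATPase that joins Cdt1 in loading, rose by 2.89-fold, 3.37-fold and 2.20-fold.

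All 6 subunits of the MCM2-7 helicase rose by over 2-fold in the LATS1/2-KO-labelled libraries. Mcm5 (chromosome 8, 75109569 to 75128439) changed the most, with normalized counts of 733, 1496 and 707 in control, 3605, 4318 and 5136 in the LATS1/2-KO-labelled libraries and 3834, 3822 and 4253 in those labelled LATS1/2-Sox9-KO. Control replicate 2 had about as many Mcm5 counts as the other control libraries together, and still less than any library of either deletion label. On the log2 scale the rise of Mcm5 was 2.15 (standard error 0.28, adjusted p = 0.000121, edgeR) for LATS1/2-KO and 2.02 (standard error 0.27, adjusted p = 0.000149, edgeR) for LATS1/2-Sox9-KO. Mcm2 (chromosome 6, 88883474 to 88898780), the subunit that also carries parental histones, changed the least, with 1174, 1664 and 952 normalized counts in control, 2016, 2461 and 3477 in the LATS1/2-KO-labelled libraries and 2835, 2465 and 2749 in those labelled LATS1/2-Sox9-KO. Control was apart from both deletion labels, which overlapped with each other, and Mcm2 rose by 1.07 on the log2 scale (standard error 0.23, adjusted p = 0.00329, edgeR) for LATS1/2-KO and by 1.09 (standard error 0.23, adjusted p = 0.00277, edgeR) for LATS1/2-Sox9-KO. Per kilobase of exon and 1000000 counts of effective library size, the scale of all levels per kilobase here, Mcm6 was the most abundant subunit and Mcm2 the least in each of the 3 groups. The level of Mcm6 was 16.8, 42.1 and 39.6 in control, LATS1/2-KO and LATS1/2-Sox9-KO, beside 3.37, 7.08 and 7.17 for Mcm2. The ratio of the highest to the lowest subunit was 5.13 ± 0.77, 6.12 ± 0.978 and 5.55 ± 0.357 (SD, n = 3 libraries each).

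All 8 genes of origin firing and helicase assembly passed the test in the LATS1/2-KO-labelled libraries, and 6 of them by over 2-fold. Dbf4 (chromosome 5, 8396973 to 8422716), the activating subunit of Cdc7 kinase, had normalized counts of 531, 590 and 380 in control, 2868, 4160 and 4009 in the LATS1/2-KO-labelled libraries, and 3132, 3794 and 3787 in those labelled LATS1/2-Sox9-KO. No library of either deletion label came near the control range. Dbf4 rose by 2.88 on the log2 scale (standard error 0.20, adjusted p = 4.68e-06, edgeR) for LATS1/2-KO and by 2.83 (standard error 0.20, adjusted p = 3.21e-06, edgeR) for LATS1/2-Sox9-KO. Cdc7, the kinase itself, rose by 3.14-fold, so that the more abundant transcript of the pair per kilobase was Cdc7 in control (1.52 beside 1.06) and Dbf4 in the LATS1/2-KO-labelled libraries (7.83 beside 4.78). Cdc45, which joins MCM2-7 and GINS in the active helicase, rose by 2.32 on the log2 scale, and Mcm10, which helps to start the assembled helicase, by 1.30.

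The GINS subunits, which are present in equal numbers in the protein complex, rose unequally. Gins3, which had the lowest level per kilobase of the 4, rose by 5.64-fold, Gins1 by 4.45-fold, Gins4 by 2.00-fold and Gins2 by 1.62-fold in the LATS1/2-KO-labelled libraries. Gins2 (chromosome 8, 120578633 to 120589304) had 625, 670 and 400 normalized counts in control, 723, 892 and 1131 in the LATS1/2-KO-labelled libraries and 677, 765 and 901 in those labelled LATS1/2-Sox9-KO. Its libraries of either deletion label lay above control, by a small margin over control replicate 2. The log2 fold change of Gins2 was 0.70 (standard error 0.24, adjusted p = 0.0292, edgeR) for LATS1/2-KO, which was lost without control replicate 3 (adjusted p = 0.0983), without replicate 2 (adjusted p = 0.0604) or 3 (adjusted p = 0.109) of the LATS1/2-KO-labelled libraries. For LATS1/2-Sox9-KO it was 0.47 (standard error 0.24, adjusted p = 0.116, edgeR), and 0.69 after adjustment for GC content (adjusted p = 0.0267, edgeR). Exons of Gins2 share 2758 bases with Gse1 on the opposite strand, and the library kit does not mark strand, although the study's methods describe counting on the same strand, so it is uncertain whether reads of the pair were told apart there. The ratio of Gins4 to Gins3 per kilobase was 37.3 ± 4.17 in control, 13.5 ± 3.66 in the LATS1/2-KO-labelled libraries and 10.5 ± 1.02 in those labelled LATS1/2-Sox9-KO (SD, n = 3 libraries each), with no overlap between control and the others.

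Primase and the polymerases held both a large rise and the fall. DNA polymerase ε synthesizes the leading strand, and Pole (chromosome 5, 110286306 to 110337474), its catalytic subunit, had normalized counts of 226, 453 and 156 in control, 1493, 2070 and 2213 in the LATS1/2-KO-labelled libraries and 1849, 2087 and 2135 in those labelled LATS1/2-Sox9-KO. The lowest of these libraries was over 3 times the highest control library. On the log2 scale Pole rose by 2.79 (standard error 0.34, adjusted p = 9.44e-05, edgeR) for LATS1/2-KO and by 2.86 (standard error 0.34, adjusted p = 6.85e-05, edgeR) for LATS1/2-Sox9-KO. Pole2, its second subunit, rose by 3.18-fold, and the catalytic and second subunits of polymerase α (Pola1 and Pola2) rose by 3.00-fold and 2.15-fold. Both primase genes, Prim1 and Prim2, which make the RNA primers, rose by 3.48-fold and 3.35-fold.

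The 3 listed subunits of DNA polymerase δ, which synthesizes the lagging strand, had lower log2 fold changes against control than those of polymerases α and ε. The difference between the polymerases was not tested. Pold3 (chromosome 7, 100082111 to 100121565) had 3921, 3963 and 4269 normalized counts in control, 2679, 3452 and 3312 in the LATS1/2-KO-labelled libraries and 2613, 2851 and 2805 in those labelled LATS1/2-Sox9-KO. All control libraries lay above all others. Its log2 fold changes were -0.36 (standard error 0.12, adjusted p = 0.0221, edgeR) for LATS1/2-KO and -0.56 (standard error 0.12, adjusted p = 0.00226, edgeR) for LATS1/2-Sox9-KO. The former call was lost without control replicate 3 (adjusted p = 0.0582), without replicate 1 of the LATS1/2-KO-labelled libraries (adjusted p = 0.0549) and in 3 of the other alternatives. Pold1 (chromosome 7, 44532746 to 44548849), the catalytic subunit, had 1274, 1369 and 1114 normalized counts in control, 935, 857 and 1324 in the LATS1/2-KO-labelled libraries and 1698, 1125 and 1139 in those labelled LATS1/2-Sox9-KO. The groups overlapped, since replicate 3 of the LATS1/2-KO-labelled libraries lay within the control range. The log2 fold change of Pold1 was -0.27 (95% interval -0.74 to 0.21, adjusted p = 0.31, edgeR) for LATS1/2-KO and 0.08 (95% interval -0.40 to 0.55, adjusted p = 0.776, edgeR) for LATS1/2-Sox9-KO. After adjustment for GC content the latter was 0.59 (adjusted p = 0.0104, edgeR). Pold2, a second subunit, rose by 1.48-fold for LATS1/2-KO, a call that was lost without control replicate 3 (adjusted p = 0.0627, edgeR) and without replicate 3 of the LATS1/2-KO-labelled libraries (adjusted p = 0.0591, edgeR). For LATS1/2-Sox9-KO it rose by 1.41-fold, which was lost in 4 of the refits with a library left out, without control replicate 2 (adjusted p = 0.0519) or 3 (adjusted p = 0.0847) and without replicate 1 (adjusted p = 0.0607) or 3 (adjusted p = 0.0553) of that group (edgeR). Over 17 alternatives the log2 fold change of Pold2 ran from 0.43 to 1.10 for LATS1/2-KO and from 0.39 to 0.98 for LATS1/2-Sox9-KO. Per kilobase, Pold3 was the most abundant of the 3 subunits in control (16.4) and Pold2 in the LATS1/2-KO-labelled libraries (14.6), with Pold1 the least abundant in both (4.79 and 3.97).

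**Figure D2:**
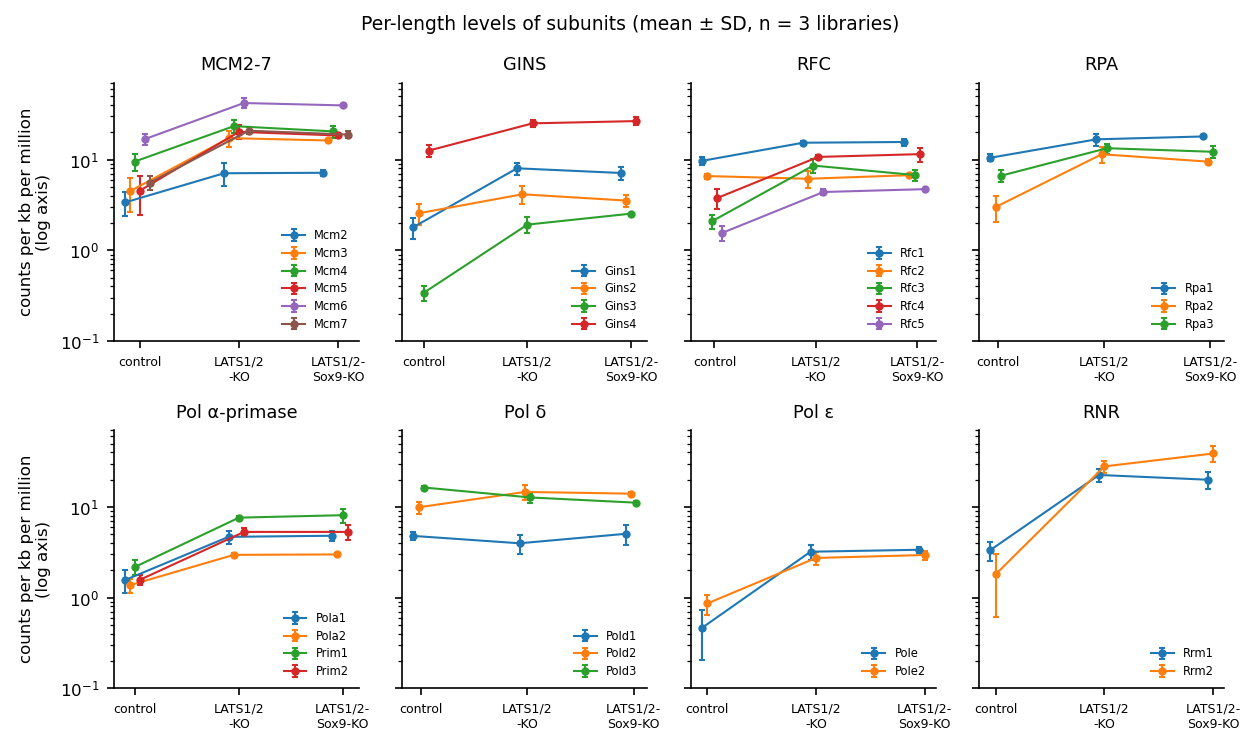
Levels of the subunits of 8 complexes as counts per kilobase of exon and 1000000 counts of effective library size (log axis), mean and SD of 3 libraries in each group, with lines joining the groups. The MCM2-7 subunits rise together, Gins3 rises more than Gins4, Rrm2 passes Rrm1 and Pole passes Pole2, while Pold1 and Rfc2 stay near their control level and Pold3 declines.

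In the clamp, clamp loader, RPA and Okazaki fragment group, 10 of 11 genes rose in the LATS1/2-KO-labelled libraries, but 6 of them by over 2-fold, and the median log2 fold change of 1.01 was the lowest of the 7 roles. Pcna, the sliding clamp, averaged 4781 ± 786 normalized counts (SD of 3 libraries) in control and 8285 ± 182 (SD of 3 libraries) in the LATS1/2-KO-labelled libraries, a rise of 1.73-fold. Rfc3 (chromosome 5, 151642756 to 151651242), a small subunit of the clamp loader, had 449, 449 and 322 normalized counts in control, 1326, 1856 and 1834 in the LATS1/2-KO-labelled libraries and 1091, 1436 and 1425 in those labelled LATS1/2-Sox9-KO. Control was well apart from the others, which overlapped, with replicate 1 the lowest library under either deletion label. Rfc3 rose by 2.04 on the log2 scale (standard error 0.20, adjusted p = 2.56e-05, edgeR) for LATS1/2-KO and by 1.69 (standard error 0.20, adjusted p = 5.99e-05, edgeR) for LATS1/2-Sox9-KO. Rfc2 (chromosome 5, 134581366 to 134601805), another small subunit, had 2156, 2400 and 2153 normalized counts in control, 2586, 1776 and 1906 in the LATS1/2-KO-labelled libraries and 2311, 2243 and 2311 in those labelled LATS1/2-Sox9-KO. All 3 groups overlapped, and replicate 1 of the LATS1/2-KO-labelled libraries was the highest. For Rfc2 the log2 fold changes were -0.10 (95% interval -0.42 to 0.23, adjusted p = 0.591, edgeR) for LATS1/2-KO and 0.03 (95% interval -0.29 to 0.36, adjusted p = 0.86, edgeR) for LATS1/2-Sox9-KO. Exons of Rfc2 share 952 bases with Lat2 on the opposite strand.

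The remaining clamp loader genes, the single-strand binding protein RPA and the enzymes that join Okazaki fragments all rose. Rfc1, the large clamp loader subunit, rose by 1.59-fold, Rfc4 by 2.84-fold and Rfc5 by 2.82-fold. Of RPA, Rpa2 rose by 1.93, Rpa3 by 1.01 and Rpa1 by 0.68 on the log2 scale. The ratio of the highest to the lowest RPA subunit per kilobase, taken in each library, was 3.66 ± 0.822 in control and 1.54 ± 0.132 in the LATS1/2-KO-labelled libraries (SD, n = 3 libraries each). Fen1, the flap nuclease, rose by 2.93-fold, and Lig1, the ligase, by 1.96-fold. Pcna-ps1 and Pcna-ps2 are annotated pseudogenes of Pcna, and reads that fit both would have been left out as not unique.

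Nucleotide supply showed the largest changes, with 2.75 as the median of the log2 fold changes and all 5 genes over 2-fold. Rrm2 (chromosome 12, 24708241 to 24714146) had normalized counts of 139, 473 and 197 in control, 3442, 4351 and 4722 in the LATS1/2-KO-labelled libraries and 4478, 6313 and 6571 in those labelled LATS1/2-Sox9-KO. Control replicate 2 was the highest control library and still over 7 times below the lowest of the other libraries. Rrm2 rose by 3.95 on the log2 scale (standard error 0.41, adjusted p = 3.44e-05, edgeR) for LATS1/2-KO and by 4.42 (standard error 0.42, adjusted p = 1.51e-05, edgeR) for LATS1/2-Sox9-KO. Over 17 alternatives these log2 fold changes of Rrm2 ran from 3.64 to 4.63 and from 4.11 to 5.11. Rrm1, the large subunit of the same enzyme, rose by 6.74-fold, so that the level per kilobase of Rrm2 was below that of Rrm1 in control (1.81 beside 3.34) and above it in the LATS1/2-KO-labelled libraries (28.0 beside 22.5). Tk1, the thymidine kinase of S phase, rose by 11.4-fold, and Tyms, which makes thymidylate, by 3.19-fold. Dut (chromosome 2, 125247190 to 125258608), which removes dUTP before it can enter DNA, changed the least of the 5. It had 543, 902 and 560 normalized counts in control, 1974, 1971 and 2430 in the LATS1/2-KO-labelled libraries and 1638, 2000 and 2193 in those labelled LATS1/2-Sox9-KO. Control did not overlap with the other groups, which overlapped with each other, and Dut rose by 1.67 on the log2 scale (standard error 0.21, adjusted p = 0.000119, edgeR) for LATS1/2-KO and by 1.54 (standard error 0.21, adjusted p = 0.000163, edgeR) for LATS1/2-Sox9-KO.

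All 5 G1/S cyclin and E2F genes rose by over 2-fold. E2f8 (chromosome 7, 48866429 to 48881596), a repressor that is itself induced in S phase, had 49.9, 85.1 and 44.8 normalized counts in control, 237, 548 and 894 in the LATS1/2-KO-labelled libraries and 502, 535 and 477 in those labelled LATS1/2-Sox9-KO. The LATS1/2-KO-labelled libraries were spread widely and replicate 1 was the lowest of them, yet every one lay above control. On the log2 scale E2f8 rose by 3.22 (standard error 0.46, adjusted p = 0.000231, edgeR) for LATS1/2-KO and by 3.07 (standard error 0.46, adjusted p = 0.000263, edgeR) for LATS1/2-Sox9-KO. Cyclin E2 (Ccne2, chromosome 4, 11191351 to 11204779), which with its kinase drives S phase entry, had 102, 99.8 and 207 normalized counts in control, 464, 467 and 442 in the LATS1/2-KO-labelled libraries and 448, 512 and 609 in those labelled LATS1/2-Sox9-KO. Here control replicate 3 and not replicate 2 was the highest control library, and control alone was apart from the other groups. Ccne2 rose by 1.75 on the log2 scale (standard error 0.29, adjusted p = 0.000586, edgeR) for LATS1/2-KO and by 1.94 (standard error 0.29, adjusted p = 0.000273, edgeR) for LATS1/2-Sox9-KO. Ccne1 and E2f1, an activator of G1/S genes, rose by 3.59-fold and 3.72-fold in the LATS1/2-KO-labelled libraries.

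The libraries with and without floxed Sox9 differed in 1 of the 50 replication genes. E2f2 was higher in those labelled LATS1/2-Sox9-KO than in those labelled LATS1/2-KO, where 3.13% of all tested genes were higher and 3.33% lower. E2f2 (chromosome 4, 136172394 to 136196057), like E2f1 an activator of G1/S genes, had normalized counts of 125, 201 and 92.1 in control, 737, 952 and 919 in the LATS1/2-KO-labelled libraries, and 2613, 2081 and 1623 in those labelled LATS1/2-Sox9-KO. The 3 groups formed separate steps without overlap. Against control, E2f2 rose by 2.64 on the log2 scale (standard error 0.29, adjusted p = 4.74e-05, edgeR) for LATS1/2-KO and by 3.91 (standard error 0.30, adjusted p = 4.77e-06, edgeR) for LATS1/2-Sox9-KO. Between the LATS1/2-Sox9-KO-labelled and LATS1/2-KO-labelled libraries it was 1.28 (standard error 0.27, adjusted p = 0.0253, edgeR), a difference of 2.42-fold. This call was lost, with log2 fold changes from 1.12 to 1.32, without replicate 3 of the LATS1/2-KO-labelled libraries (adjusted p = 0.0789) and without replicate 1 (adjusted p = 0.075) or replicate 2 (adjusted p = 0.0818) of those labelled LATS1/2-Sox9-KO.

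No member was lower in that comparison (edgeR, 2 members at an unadjusted p below 0.05, both higher, and 0 lower with DESeq2). The second member was Ccne1, cyclin E1, with 895, 944 and 1023 normalized counts in the LATS1/2-KO-labelled libraries and 1587, 1282 and 1240 in those labelled LATS1/2-Sox9-KO. Its groups did not overlap, but its log2 fold change of 0.52 (95% interval 0.09 to 0.96, adjusted p = 0.148, edgeR) did not pass the adjusted threshold. All LATS1/2-Sox9-KO-labelled libraries lay above all those labelled LATS1/2-KO for 4 members (Gins3, Rfc5, Ccne1 and E2f2), against 14.6% of all tested genes, and below them for no member, against 13.3%. A difference of over 2-fold that passed the test was found for E2f2, against 1.55% of all tested genes higher and 2.16% lower. The median log2 fold change of the 50 genes was 0.02, beside -0.01 for all tested genes. For 47 of the 50, the 95% interval of the difference lay within 2-fold in either direction. The exceptions were E2f2, Rrm2 (log2 difference 0.47, 95% interval -0.33 to 1.28) and E2f8 (log2 difference -0.15, 95% interval -1.06 to 0.76).

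**Figure D3:**
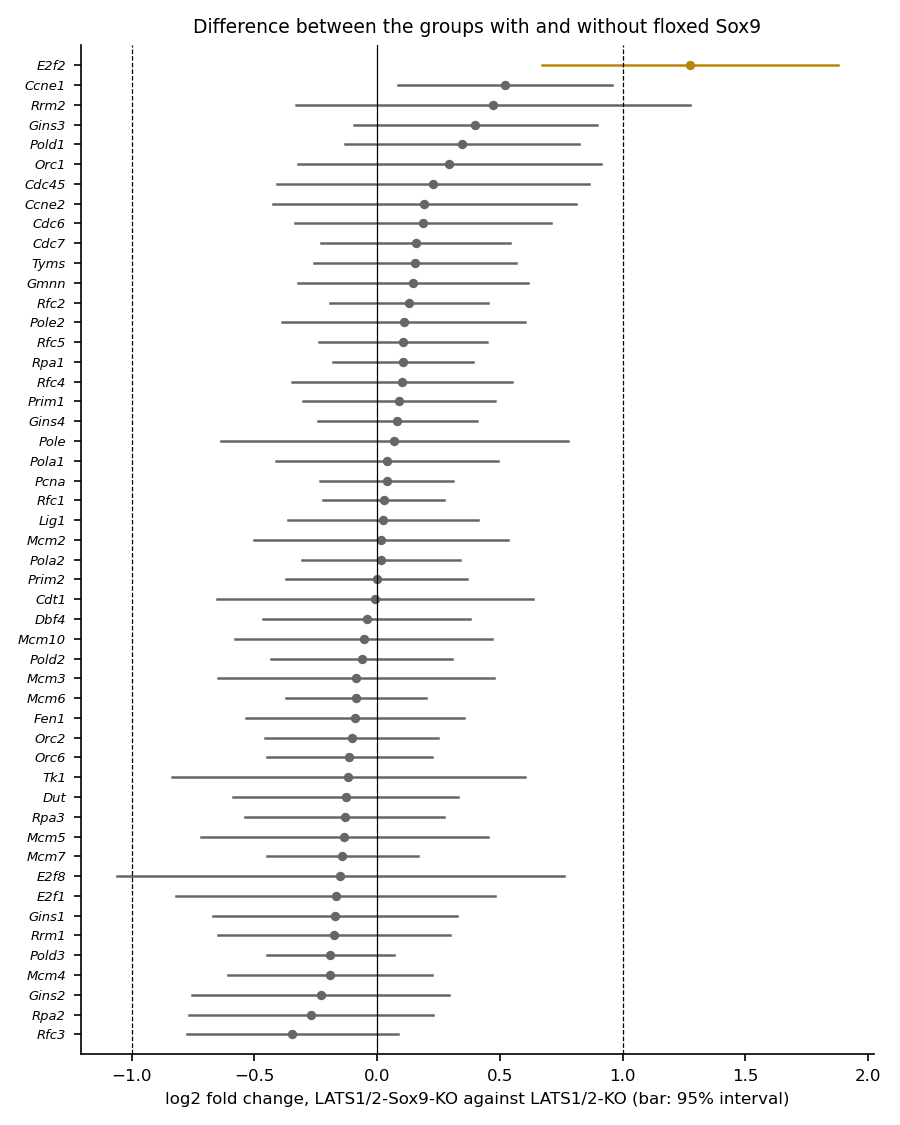
Log2 fold change of each of the 50 genes between the LATS1/2-Sox9-KO-labelled and LATS1/2-KO-labelled libraries, with 95% intervals from edgeR and dashed lines at 2-fold. E2f2, the gene that passed the adjusted threshold, is in gold, and the intervals of 47 genes stay between the dashed lines.

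**Figure D4:**
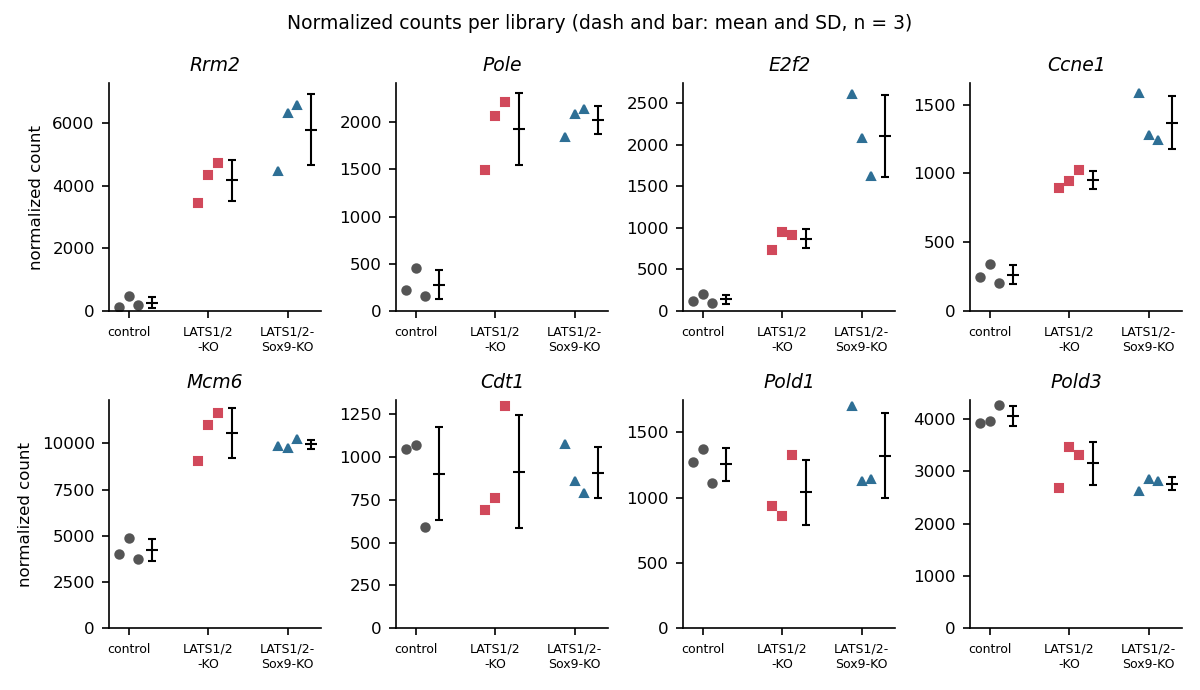
Normalized counts of 8 of the genes in each of 9 libraries, with the mean and SD of each group beside the points (axes start at 0). Rrm2, Pole, E2f2, Ccne1 and Mcm6 are above control in every library of either deletion label, with E2f2 and Ccne1 higher still in those labelled LATS1/2-Sox9-KO, while Cdt1 and Pold1 overlap with control and Pold3 is below it.

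Of 70 other genes of replication, chromatin at the fork, nucleotide supply and G1/S control, 50 were higher and 8 lower in the LATS1/2-KO-labelled libraries, and 51 higher and 9 lower in those labelled LATS1/2-Sox9-KO. Among all tested genes 28.7% were higher and 27.1% lower in the former, and 29.3% and 28.7% in the latter. Their median log2 fold change was 1.04 for LATS1/2-KO and 0.99 for LATS1/2-Sox9-KO. The largest rises were those of Ccna2 (log2 fold change 4.44), cyclin A2 of S phase and G2, E2f7 (3.45), a repressor related to E2f8, Clspn (3.42), the adaptor claspin of the fork checkpoint, Skp2 (3.23), which directs cell cycle inhibitors to degradation, and Hells (3.20), a chromatin remodeler. The largest fall in the LATS1/2-KO-labelled libraries was that of Dnmt1, the enzyme that copies DNA methylation after the fork. Dnmt1 had 9187, 10187 and 8258 normalized counts in control, 3834, 4165 and 4702 in the LATS1/2-KO-labelled libraries and 4211, 4068 and 3846 in those labelled LATS1/2-Sox9-KO. No library overlapped between control and the others, and Dnmt1 fell by 1.12 on the log2 scale (standard error 0.12, adjusted p = 3.33e-05, edgeR) in the LATS1/2-KO-labelled libraries. Uhrf1, which brings Dnmt1 to newly copied DNA, rose by 1.84 on the log2 scale (adjusted p = 0.000267, edgeR). The accessory polymerase δ subunit Pold4 fell by 0.91 on the log2 scale, and the repair polymerase Polb by 0.96. Rbl2, the pocket protein p130 of resting cells, fell by 0.90 for LATS1/2-KO and by 1.54, the largest fall of the 70, for LATS1/2-Sox9-KO. Tk2, the mitochondrial thymidine kinase, fell by 0.79 for LATS1/2-KO.

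Of the same 70 genes, 3 (4.29%, beside 3.33% of all tested genes lower and 3.13% higher) differed between the LATS1/2-Sox9-KO-labelled and LATS1/2-KO-labelled libraries, each lower in the former. They were Tfdp2, a dimerization partner of E2F proteins (0.498-fold, standard error 0.20 on the log2 scale, adjusted p = 0.0218, edgeR), Rbl2 (log2 fold change -0.64, standard error 0.16, adjusted p = 0.0453, edgeR) and Top2b, a topoisomerase of resting and cycling cells (log2 fold change -0.64, standard error 0.11, adjusted p = 0.0118, edgeR). Tfdp2 had 1748, 2055 and 2187 normalized counts in the LATS1/2-KO-labelled libraries and 839, 886 and 1260 in those labelled LATS1/2-Sox9-KO, and the groups did not overlap.

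**Figure D5:**
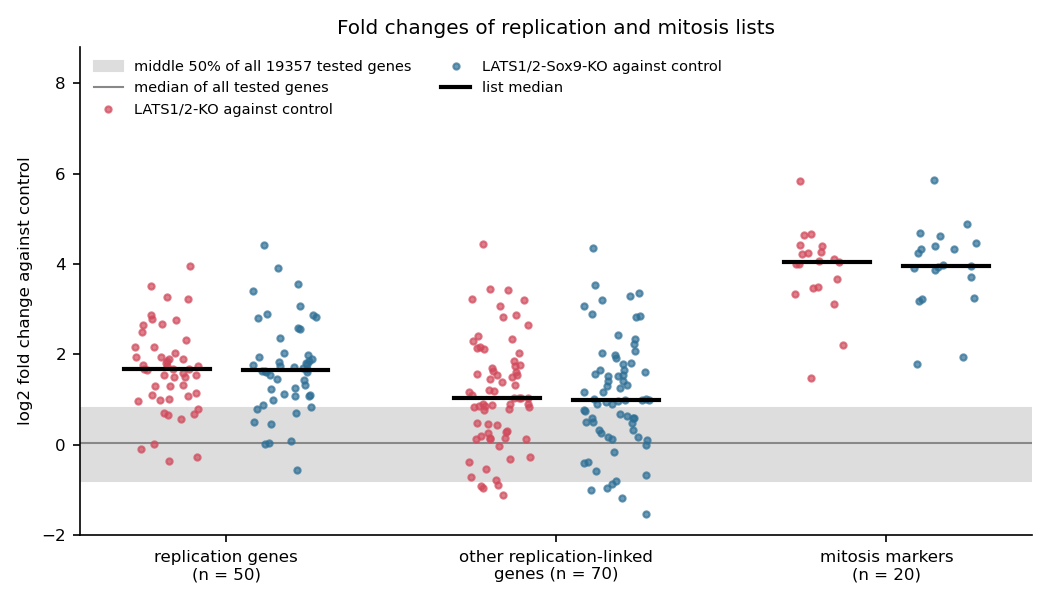
Log2 fold changes against control of the 50 replication genes, 70 other replication-linked genes and 20 mitosis markers, 1 point per gene, with the list median as a black bar and the median and middle 50% of all 19357 tested genes in gray (LATS1/2-KO against control). The medians for LATS1/2-KO are 1.67, 1.04 and 4.05, beside 0.04 for all tested genes.

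Mitosis markers moved with the replication genes. All 20 rose in both comparisons with control, with median log2 fold changes of 4.05 for LATS1/2-KO and 3.96 for LATS1/2-Sox9-KO. Their summed normalized counts were 4104, 8007 and 3986 in control, 68517, 70789 and 70596 in the LATS1/2-KO-labelled libraries and 63673, 73513 and 79221 in those labelled LATS1/2-Sox9-KO. Control replicate 2, the highest control library for most replication genes, also had the highest sum here. Those with the most counts were Top2a (log2 fold change 3.49), the topoisomerase that resolves sister chromatids, Mki67 (4.22), which coats mitotic chromosomes, and Kif20a, a kinesin of cytokinesis. The part of the number of cycling cells in the rise of single replication genes was not tested.

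The sorted cells carried the keratins of luminal epithelium in every library. Krt18, the most abundant of 15 luminal markers, had normalized counts of 239706 to 257940 in control, 384348 to 428714 in the LATS1/2-KO-labelled libraries and 638918 to 789495 in those labelled LATS1/2-Sox9-KO. Of the 15, 2 were higher and 8 lower for LATS1/2-KO, and 3 higher and 10 lower for LATS1/2-Sox9-KO. Beside these and the basal counts below, 28.7% of all tested genes were higher and 27.1% lower for LATS1/2-KO, and 29.3% and 28.7% for LATS1/2-Sox9-KO. Prlr, the prolactin receptor, had 152431 to 201231 normalized counts in control and 2654 to 11400 in the LATS1/2-KO-labelled libraries. Among 12 basal or myoepithelial markers 6 were higher and 4 lower for LATS1/2-KO, and 5 higher and 6 lower for LATS1/2-Sox9-KO, with Krt14 at 501 to 909 in control and 139506 to 252969 in the LATS1/2-KO-labelled libraries, while Trp63 was lower there, at 40.7 to 70.2 beside 374 to 2153 in control. The summed luminal markers were 1056916, 1021118 and 1172447 in control, 954177, 928446 and 910492 in the LATS1/2-KO-labelled libraries and 1556935, 1430889 and 1341088 in those labelled LATS1/2-Sox9-KO. The basal markers summed to 24493, 28136 and 27498, to 284404, 178703 and 174844, and to 171504, 295744 and 401585 in the same order.

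Markers of other cell types were counted in the same way, beside shares of 28.7% higher and 27.1% lower among all tested genes for LATS1/2-KO and of 29.3% and 28.7% for LATS1/2-Sox9-KO. Of 14 myeloid markers, 5 were higher for LATS1/2-KO, and 8 were higher and 1 lower for LATS1/2-Sox9-KO. The most abundant was Cd14, which is also on the luminal list and made up most of each control sum, and with it the sums overlapped between groups, at 15586, 14485 and 8044 in control, 17083, 16581 and 13034 in the LATS1/2-KO-labelled libraries and 9974, 8658 and 11489 in those labelled LATS1/2-Sox9-KO. Without Cd14, a sum added after the values were seen, the other 13 came to 1149, 801 and 813 in control, 5283, 3503 and 2311 in the LATS1/2-KO-labelled libraries and 3978, 4027 and 5666 in those labelled LATS1/2-Sox9-KO, with no overlap between control and the others. This separation rested on Csf1r, which made up most of each sum of the 13 under either deletion label. With Csf1r left out as well, the sums of both deletion labels overlapped with control. Csf1r, the receptor for a macrophage growth factor, had 208, 128 and 139 normalized counts in control, 2804, 2374 and 1753 in the LATS1/2-KO-labelled libraries and 2716, 3122 and 3875 in those labelled LATS1/2-Sox9-KO. It was higher by 14.6-fold for LATS1/2-KO (adjusted p = 3.27e-06, edgeR) and by 20.4-fold for LATS1/2-Sox9-KO (adjusted p = 1.35e-06, edgeR). Csf1r thus rose in the same libraries as the replication genes. Other markers of the 14 did not pass for LATS1/2-KO, such as Lyz2 (log2 fold change 0.87, adjusted p = 0.374, edgeR). Cd68 had 406, 404 and 398 normalized counts in control and 315, 393 and 229 in the LATS1/2-KO-labelled libraries, all below control. C1qa of macrophages had 17.4, 22.7 and 11.2 normalized counts in control, 260, 120 and 44.7 in the LATS1/2-KO-labelled libraries and 121, 73.7 and 215 in those labelled LATS1/2-Sox9-KO. Of 8 adipocyte markers, 6 were higher and 1 lower for LATS1/2-KO, and 4 higher and 1 lower for LATS1/2-Sox9-KO, with sums of 5780, 5472 and 3983 in control, 1213, 7375 and 4600 in the LATS1/2-KO-labelled libraries and 1281, 3100 and 2541 in those labelled LATS1/2-Sox9-KO. The lower gene was Lipe, the hormone-sensitive lipase, which had 5498, 5286 and 3685 normalized counts in control and 722, 602 and 1065 in the LATS1/2-KO-labelled libraries (0.165-fold, adjusted p = 1.46e-05, edgeR). Lipe made up most of the control sum, and Cfd was the most abundant adipocyte gene in the LATS1/2-KO-labelled libraries. Cfd and Lep had no counts in control, and Cfd had 0, 3093 and 1780 normalized counts in the LATS1/2-KO-labelled libraries and 0.928, 861 and 360 in those labelled LATS1/2-Sox9-KO.

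Of 10 fibroblast markers 4 were higher and 1 lower for LATS1/2-KO, and 3 higher and 2 lower for LATS1/2-Sox9-KO. Their sums overlapped between groups, at 2531, 4455 and 9725 in control and 10290, 2775 and 3427 in the LATS1/2-KO-labelled libraries, with Dcn the most abundant in control and Col3a1 in the others. Their sums in the LATS1/2-Sox9-KO-labelled libraries were 3172, 4260 and 7707. Of 10 endothelial markers 1 was higher and 2 lower for LATS1/2-KO, and 1 higher and 3 lower for LATS1/2-Sox9-KO, with sums of 6437, 5296 and 6176 in control, 1432, 958 and 1047 in the LATS1/2-KO-labelled libraries and 600, 1115 and 1203 in those labelled LATS1/2-Sox9-KO, most of the control sum being Vwf. Of 14 T and NK cell markers 3 could be tested and none passed the adjusted threshold in edgeR, with Lck at an unadjusted p below 0.05 for LATS1/2-KO and Il2rb for LATS1/2-Sox9-KO. These markers summed to 141 to 168 normalized counts in control, 179 to 203 in the LATS1/2-KO-labelled libraries and 106 to 148 in those labelled LATS1/2-Sox9-KO, mostly from Lck, and Cd3e and Ncr1 had no counts in any library. B cell markers summed to 11.9 to 87.3 in the 9 libraries, mostly from Cd79a, and Ms4a1 had no counts in any, while 1 of 3 tested was lower for LATS1/2-KO and 1 higher and 1 lower for LATS1/2-Sox9-KO. Erythroid markers summed to 142, 145 and 120 in control, 87.3, 5.08 and 18.2 in the LATS1/2-KO-labelled libraries and 2.79, 0 and 0.911 in those labelled LATS1/2-Sox9-KO. The most abundant in control was Alas2, of heme synthesis, which was lower in both comparisons with control (adjusted p = 0.000707 and 5.6e-05, edgeR), and Hba-a2 had no counts in any library. The defining T, NK and B cell markers were thus at 0, and the part of the remaining cell types in the rise of replication genes was not tested.

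Exons of 17 of the 50 genes overlap other annotated genes, 15 of them on the opposite strand, and the other 33 are free of overlap. Orc2, Fen1, Ccne2 and E2f8 share 1150, 1909, 609 and 610 bases with Nif3l1, Gm10143, Ints8 and Gm2788, and their values are less certain for that reason.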

How the data were processed

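The authors aligned paired reads to mm10 with STAR 2.6.0c and counted uniquely aligned pairs per Ensembl gene with featureCounts (Subread 1.6.2), leaving out mitochondrial genes. The deposited values are these raw counts, in 9 libraries, without normalization or pooling. The study's methods describe counting on the same strand, while the library kit does not mark strand, so it is uncertain how reads over opposite-strand genes were assigned.

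Counts were analysed in R 4.3.3 with edgeR 4.0.16 (filterByExpr, TMM, quasi-likelihood fit of 3 group means to all 9 libraries, Benjamini-Hochberg adjustment over 19357 genes). Intervals are the estimate with its standard error, taken as the log2 fold change over the square root of F. A level per kilobase divides by the exon length of GENCODE M21, to which 99.5% of identifiers matched. In simulated data for LATS1/2-KO against control, edgeR recovered 89% of 100 genes changed by 1 and 100% of those changed by 2 on the log2 scale. Every simulated gene had the same spread beyond counting noise, and the changed genes were drawn from well-counted ones, beside 17746 unchanged genes. The real genes differ in spread, so these rates do not give the power for these data.

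The 50 genes, the roles and the other lists were chosen with earlier results of these data known. Full values were given for the genes with the highest and the lowest log2 fold change in each role, for genes below control and for genes that differed between the groups with and without floxed Sox9. Of the 70 other genes, the 5 largest rises and the 5 largest falls were named, and Uhrf1, Ccne1 and the 3 genes that differed with Sox9 were chosen after their values were seen, as were examples among the cell type markers. Groups and replicate numbers came from the labels, which do not say whether libraries came from separate mice, so p-values measure the spread between these libraries. No 2 libraries of a group agreed within counting noise (chi-square per gene 17.9 to 142). With 3 libraries against 3, the smallest p of an exact permutation test is 0.1. Averaged over genes, the spread between libraries exceeded counting error, but this was not checked for genes with few counts. The alternatives were other normalizations, filters and tests, a GC adjustment, the replicate number as a block, and each library left out. Of the erythroid markers, 1 is not reported here.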

Additional observations from a re-analysis of the deposited data

How the results depend on the processing

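Of the 50 genes, 826 of 850 refits for LATS1/2-KO against control kept the side of the threshold, as did 828 of 850 for LATS1/2-Sox9-KO against control and 846 of 850 for LATS1/2-Sox9-KO against LATS1/2-KO. No gene that passed the test changed direction, but genes that did not pass could change sign, as Pold1 did for LATS1/2-KO against control (-0.27, from -0.47 to 0.26). The refits that lost a call concerned 14 genes in each control comparison, and E2f2 in the third. The fall of Pold3 in the libraries labelled LATS1/2-KO, the 1 member lower, came to 0 with no low-count filter, with the 2 groups fitted alone and with glmTreat, and to 0 or 1 with a library left out. With glmTreat, a test against a 2-fold change and so stricter by construction, 33 and 32 members were higher and 0 lower in the control comparisons, with 1962 genes higher and 2043 lower in all for LATS1/2-KO and 2240 and 2468 for LATS1/2-Sox9-KO. For LATS1/2-Sox9-KO against LATS1/2-KO it called 0 members higher, 0 over 2-fold, and 18 genes higher and 14 lower in all. DESeq2 called 1163 higher and 1219 lower there, against 605 and 644 with edgeR, and the cause was not tested. With a library left out, that comparison gave 155 to 1012 genes higher, 94 to 1032 lower, and 0 to 1 member higher, also over 2-fold. After adjustment for GC content, the median log2 fold change of the 50 genes for LATS1/2-KO was 1.44 in place of 1.67.

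Same-numbered libraries of different groups had correlations of -0.066 to 0.17 in their deviations from group means, and different-numbered ones -0.164 to 0.064. The highest were those of LATS1/2-KO with LATS1/2-Sox9-KO for replicate 2 (0.17) and replicate 1 (0.105), while replicate 3 had -0.032. Whether the numbers pair libraries of the deletion groups was therefore not settled. With the replicate block, 45 members were higher for LATS1/2-KO (Gins2 was lost, adjusted p = 0.0527), 45 for LATS1/2-Sox9-KO, and 1 between the deletion groups, where 472 genes in all were higher and 503 lower. Over the 17 alternatives, which include this block, 1962 to 5788 genes in all were higher for LATS1/2-KO and 2240 to 5838 for LATS1/2-Sox9-KO. With 3 libraries a group, differences inside the 95% intervals given for single genes were not resolved.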
